A study of Homo sapiens with 12 samples.

Results

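The 8 genes described here belong to the lipid droplet and to triglyceride breakdown, and were followed across an RNA sequencing study of EP300 silencing and hydrogen peroxide (H2O2) in AC16 cells: *G0S2*, *HILPDA*, *PNPLA2*, *ABHD5*, *LIPE*, *MGLL*, *PLIN2* and *PLIN3*. They were taken by name and matched to the row symbols of the deposited tables, where all 8 of 8 were found among 17197 symbols and all 8 passed the filter on low counts. The set was selected on values of these same libraries around *G0S2*, with no record of which comparison was used, so the levels of *G0S2* are given as a description without a p-value. For the other 7 genes, a call only places the gene in the test run across all genes.

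A lipid droplet is a store of triglyceride and cholesterol ester wrapped in a phospholipid layer and coat proteins. Fatty acids leave it in steps: the lipase ATGL, encoded by *PNPLA2*, removes the first from triglyceride, hormone-sensitive lipase (*LIPE*) acts on the diglyceride and monoglyceride lipase (*MGLL*) on the monoglyceride. ATGL is switched on by its co-activator *ABHD5* (CGI-58) and held back by the small inhibitory proteins *G0S2* and *HILPDA*, while *PLIN2* and *PLIN3* are perilipin coat proteins found in most cell types. Heart muscle burns fatty acids as its main fuel, and ATGL is known there as the enzyme that releases them from stored fat.

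AC16 is an established human line made by fusing adult ventricular heart cells with transformed fibroblasts. There were 12 libraries in 4 groups of 3: EP300 siRNA with H2O2 (siEP300.H2O2, libraries 10 to 12), EP300 siRNA alone (siEP300, libraries 4 to 6), the negative control siRNA plus H2O2 (siNC.H2O2, libraries 7 to 9) and the negative control siRNA alone (siNC, libraries 1 to 3). All cells were transfected with jetPRIME in medium lacking serum. The peroxide was added 12 h after transfection and left for 1 h, at a dose labelled as 200 mM whose unit could not be checked, and RNA was taken after 48 h, following a change to complete medium. One treatment field of the labels names MLF1 where the titles name EP300, for the same 6 samples. Nothing in the labels tells whether libraries of 1 group were grown as separate cultures, and a p-value therefore covers the spread among these samples only, which may be technical.

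Start-site windows of 300 bases, from 250 before to 50 after each annotated start, were available for 6 of the 8 genes in RefSeq (GRCh38.p14). Each was searched on both strands for 4 motifs. These were ACGTG, 1 form of the hypoxia response core, and the PPAR-type direct repeat (2 copies of AGGTCA with any 1 base between). The others were the antioxidant response core TGACNNNGC and the AP-1 form TGANTCA. Other forms of the hypoxia core, such as GCGTG, were not searched. The 4 windows below are shown because they hold the matches found, or, for *PNPLA2*, because it encodes the lipase that *G0S2* inhibits. Capitals mark matched letters. The *G0S2* window is chr1:209675162-209675461 (plus strand), the *PLIN3* window chr19:4867618-4867917 (minus), the *PLIN2* window chr9:19127443-19127742 (minus) and the *PNPLA2* window chr11:818664-818963 (plus).
G0S2: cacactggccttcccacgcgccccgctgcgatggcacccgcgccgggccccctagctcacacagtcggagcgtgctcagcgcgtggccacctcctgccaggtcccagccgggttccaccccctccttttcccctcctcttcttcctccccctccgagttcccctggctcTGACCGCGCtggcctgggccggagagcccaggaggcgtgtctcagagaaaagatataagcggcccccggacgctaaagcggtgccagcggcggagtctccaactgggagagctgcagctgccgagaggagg
PLIN3: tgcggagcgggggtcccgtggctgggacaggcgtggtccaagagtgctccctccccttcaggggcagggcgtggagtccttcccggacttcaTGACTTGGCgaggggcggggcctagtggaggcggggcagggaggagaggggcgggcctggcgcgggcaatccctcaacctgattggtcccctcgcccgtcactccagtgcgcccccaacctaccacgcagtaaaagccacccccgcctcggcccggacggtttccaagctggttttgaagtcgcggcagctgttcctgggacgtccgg
PLIN2: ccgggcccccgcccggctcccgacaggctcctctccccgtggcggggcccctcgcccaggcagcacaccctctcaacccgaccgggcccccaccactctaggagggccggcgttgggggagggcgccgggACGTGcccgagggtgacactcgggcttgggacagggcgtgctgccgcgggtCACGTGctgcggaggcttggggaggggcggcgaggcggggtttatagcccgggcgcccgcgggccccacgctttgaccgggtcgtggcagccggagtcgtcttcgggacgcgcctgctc
PNPLA2: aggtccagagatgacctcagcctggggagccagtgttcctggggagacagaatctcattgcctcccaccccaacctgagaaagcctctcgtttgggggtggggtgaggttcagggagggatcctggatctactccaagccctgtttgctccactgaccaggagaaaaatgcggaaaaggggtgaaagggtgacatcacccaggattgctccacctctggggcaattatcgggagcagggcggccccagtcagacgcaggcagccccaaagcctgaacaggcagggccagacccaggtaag

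The *G0S2* window had 1 match to TGACNNNGC, starting at position -81 from the start site, and the *PLIN3* window had 1 at -158. TGACNNNGC was present in 13.3% of all 35114 windows of this length. The *PLIN2* window held ACGTG at -120 and again at -69 and -68, where matches on both strands overlap in CACGTG; 21.4% of all windows held ACGTG. Neither the *PNPLA2* window nor those of *ABHD5* and *LIPE* held any of the 4 motifs. The direct repeat occurred in 0.0228% and TGANTCA in 7.71% of all windows, and neither was found for these genes. GC content was 69.0% for *G0S2*, 69.0% for *PLIN3*, 76.7% for *PLIN2* and 59.3% for *PNPLA2*, against a median of 58.7% over all windows. A match is a description of letters and was not linked to binding of any factor.

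Estimated counts summed to between 16081437 and 19033679 per library. EP300 itself was at 30.1, 26.9 and 26.5 CPM (counts scaled to library totals with TMM factors) in siEP300.H2O2, 36.2, 36.8 and 36.7 in siEP300, 59.9, 80.4 and 89.8 in siNC.H2O2 and 101, 69.0 and 80.1 in siNC. It was 2.28-fold lower in siEP300 than in siNC (edgeR adjusted p = 3.6e-06) and 2.76-fold lower in siEP300.H2O2 than in siNC.H2O2 (edgeR adjusted p = 5.85e-07), whereas MLF1 was 1.16-fold and 1.22-fold lower. Within groups, 28.6% of the variance lay along 1 axis, whose gene loadings had a rank correlation of 0.61 with transcript length across 12868 genes. Library 10 of siEP300.H2O2, at a score of 15.8, library 7 of siNC.H2O2, at -13.9, and library 1 of siNC, at 17.6, lay furthest from their nearest partner on it; library 9 of siNC.H2O2 stood at 12.1. Results were also computed without libraries 1 and 7 and without all 3. The labels single out none of these libraries, so both sets rest on the data, the set of 3 by a choice made after seeing them. Leaving out either set lowers the spread within groups by construction. Of 14 cardiomyocyte markers only *TNNI3*, *GATA4*, *NPPB* and *TTN* passed the filter. The 13 present in the deposited data, passed or not, summed to 52.1 to 60.1 CPM in siEP300.H2O2, 51.9 to 53.0 in siEP300, 64.0 to 80.8 in siNC.H2O2 and 57.3 to 60.7 in siNC. All 6 of 6 fibroblast markers passed, at a summed 7021 to 7439 CPM in siEP300.H2O2, 8591 to 8796 in siEP300, 8654 to 8914 in siNC.H2O2 and 7798 to 8038 in siNC. Of 6 adipocyte markers, *PLIN1* and *CIDEC* passed. The 5 present, passed or not, summed to 2.15 to 3.26 CPM in siEP300.H2O2, 2.07 to 2.84 in siEP300, 2.53 to 2.71 in siNC.H2O2 and 2.11 to 2.60 in siNC. Of 4 endothelial markers 3 passed, and all 4 together summed to 6.34 to 7.06 CPM in siEP300.H2O2, 9.17 to 10.7 in siEP300, 3.39 to 4.15 in siNC.H2O2 and 4.27 to 5.62 in siNC. The macrophage genes *CD68* and *CD14* passed, and the leukocyte genes *PTPRC* and *ITGAM* stayed under the filter. All 4 together summed to 68.1 to 80.8 CPM in siEP300.H2O2, 42.0 to 46.3 in siEP300, 52.9 to 54.9 in siNC.H2O2 and 34.5 to 43.0 in siNC. Genes of the same list differed in direction, which the sums do not show. In siEP300 against siNC the log2 difference was 1.21 for *TEK* and -1.43 for *PECAM1*, and 0.35 for *CD68* and -0.73 for *CD14*. It was 0.77 for *COL1A2* and -1.83 for *DCN*, and 0.81 for *TTN* and -0.66 for *GATA4*. The part of these markers in the results was not tested.

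*G0S2*, the inhibitor of ATGL, was several-fold higher after H2O2 with either siRNA. Its level was 209, 261 and 266 CPM in siEP300.H2O2 and 49.8, 48.8 and 47.7 CPM in siEP300. With the control siRNA, siNC.H2O2 libraries had 295, 244 and 203 CPM, against 30.6, 41.1 and 35.7 CPM in siNC. Every library with H2O2 lay far above every library without it, and the siEP300.H2O2 libraries lay inside the range of the siNC.H2O2 libraries. Group means were 245 ± 31.2, 48.8 ± 1.08, 247 ± 45.9 and 35.8 ± 5.24 CPM for siEP300.H2O2, siEP300, siNC.H2O2 and siNC (SD, n = 3 each).

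On the log2 scale *G0S2* differed by 2.33 ± 0.13 (SE of the fit) between siEP300.H2O2 and siEP300, or 5.03-fold, and by 2.79 ± 0.13 between siNC.H2O2 and siNC, or 6.91-fold. It stood at place 22 and place 11 among 13171 tested genes ordered from the highest log2 fold change in these comparisons. Without H2O2, all 3 siEP300 libraries lay above all 3 siNC libraries, a log2 difference of 0.45 ± 0.14 or 1.36-fold. With H2O2 the difference between siEP300.H2O2 and siNC.H2O2 was -0.01 ± 0.12, with a 95% interval of -0.27 to 0.25. That value was 0.09 without library 10 of siEP300.H2O2 and 0.24 without libraries 1, 7 and 10. The H2O2 difference with EP300 siRNA minus that with control siRNA was -0.46 ± 0.18; it was -0.22 without libraries 1 and 7 and -0.11 without 1, 7 and 10. Library 10 had the lowest *G0S2* level of siEP300.H2O2, library 7 the highest of siNC.H2O2 and library 1 the lowest of siNC. In bulk RNA, fewer cells of a type and less RNA per cell cannot be told apart, here and for every gene that follows. *G0S2* lies at chr1:209675420-209676388 on the plus strand (GENCODE, GRCh38), has 2 exons and is overlapped by an antisense gene.

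*HILPDA*, the other small ATGL inhibitor and a known hypoxia-induced gene, stayed near 10 CPM throughout. Its level was 9.38, 9.83 and 10.6 CPM in siEP300.H2O2, 9.28, 10.9 and 9.81 in siEP300, 11.5, 9.24 and 9.91 in siNC.H2O2 and 10.4, 10.99 and 10.5 in siNC. The libraries of all 4 groups overlapped along the order of the means. No comparison passed the test: edgeR adjusted p was 0.964 for siEP300.H2O2 against siEP300 and 0.68 for siNC.H2O2 against siNC. The 95% intervals of these log2 differences were -0.22 to 0.21 and -0.27 to 0.15, which leaves out a change of the size measured for *G0S2*. Against the control siRNA, edgeR adjusted p was 0.75 with H2O2 and 0.438 without it. The *HILPDA* counts were 147 to 213 per library.

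**Figure D1:**
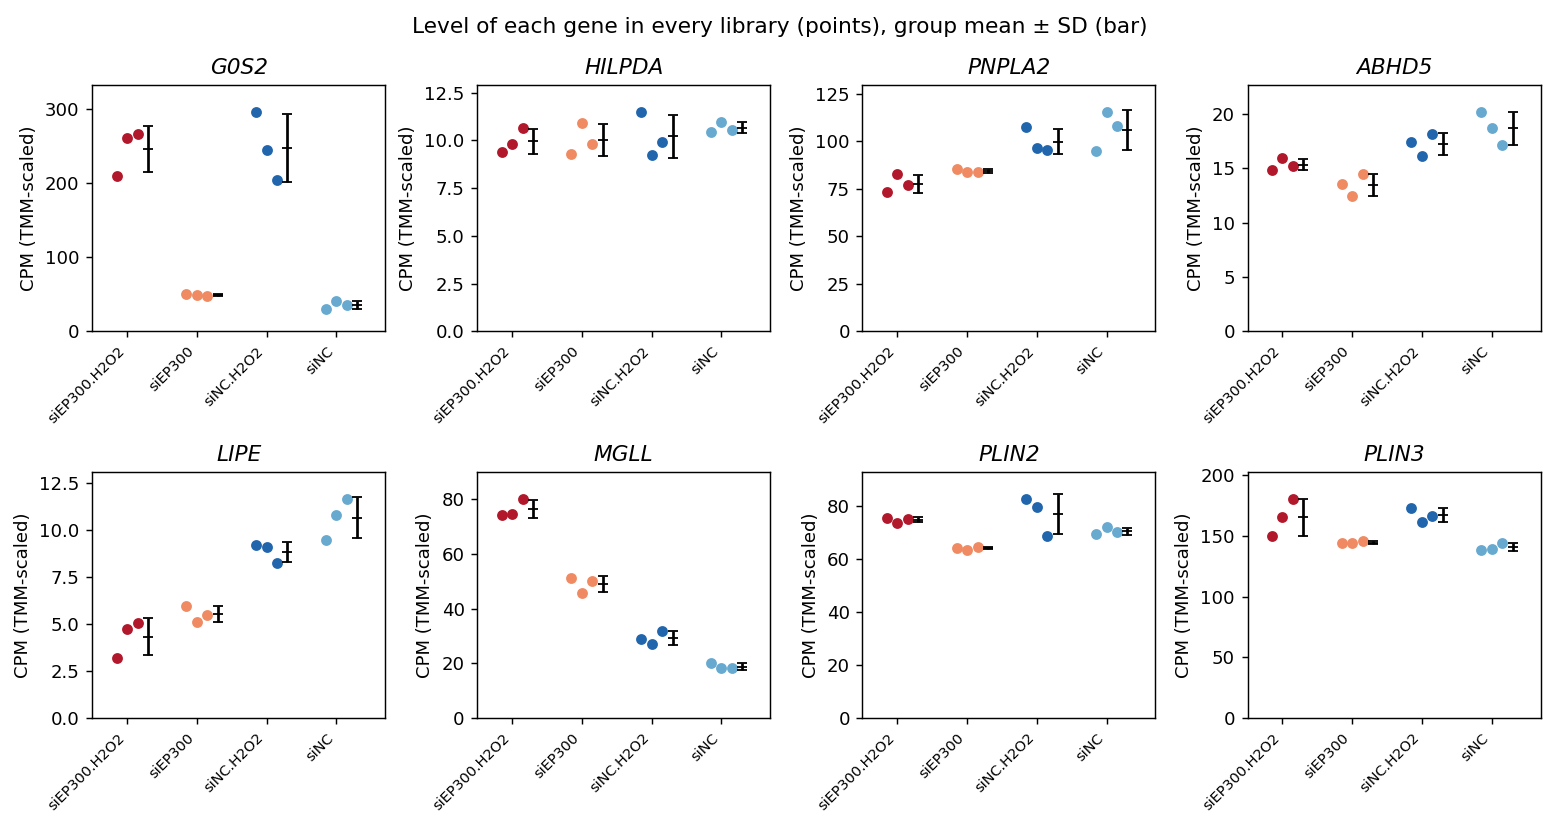
Level of each of the 8 genes in CPM (vertical axis, linear from 0), 1 point per library, with the group mean ± SD as a bar, for siEP300.H2O2, siEP300, siNC.H2O2 and siNC from left to right. *G0S2* separates by H2O2, *MGLL* averages 76.3, 49.0, 29.3 and 18.9 CPM in that order, *LIPE* is lowest in the EP300 siRNA groups, and *HILPDA* is level.

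*PNPLA2*, the gene of ATGL itself, was lower with EP300 siRNA and did not pass the test for H2O2. It was at 73.3, 82.6 and 76.8 CPM in siEP300.H2O2, 85.5, 84.0 and 83.9 in siEP300, 107, 96.6 and 95.2 in siNC.H2O2 and 94.7, 115 and 108 in siNC. Every EP300 siRNA library lay below every control siRNA library. *PNPLA2* fell by 0.36 ± 0.07 on the log2 scale in siEP300.H2O2 relative to siNC.H2O2 (edgeR adjusted p = 0.000652) and by 0.33 ± 0.07 in siEP300 relative to siNC (edgeR adjusted p = 0.00131). For H2O2 the log2 difference was -0.12 with EP300 siRNA (edgeR adjusted p = 0.229) and -0.09 with control siRNA (edgeR adjusted p = 0.382). Without libraries 1 and 7 the control siRNA value was -0.22 and passed the test, as it did without 1, 7 and 10, at -0.22.

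*ABHD5*, the co-activator of ATGL, passed the test as lower with EP300 siRNA without H2O2 but not with it, and the difference between these effects did not pass. It was at 14.9, 15.9 and 15.2 CPM in siEP300.H2O2, 13.5, 12.5 and 14.5 in siEP300, 17.4, 16.2 and 18.1 in siNC.H2O2 and 20.2, 18.7 and 17.1 in siNC. The log2 difference was -0.17 ± 0.09 between siEP300.H2O2 and siNC.H2O2 (edgeR adjusted p = 0.102) and -0.47 ± 0.09 between siEP300 and siNC (edgeR adjusted p = 0.00024). The first minus the second was 0.30 ± 0.12 (edgeR adjusted p = 0.214). The siEP300.H2O2 libraries lay above all siEP300 libraries, yet edgeR's adjusted p was 0.122. *ABHD5* (chr3:43690108-43734371, plus strand) overlaps *ANO10* on the opposite strand, and since the strand setting of the counting is not given in the sources used here, reads of the pair cannot be told apart.

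Set against each other within a library, the transcripts of *G0S2* and *PNPLA2* shifted by several-fold. The ratio of their length-scaled levels (FPKM) was 10.7, 11.7 and 12.7 in siEP300.H2O2 and 2.15, 2.17 and 2.11 in siEP300. It was 10.1, 9.43 and 7.88 in siNC.H2O2 and 1.20, 1.30 and 1.22 in siNC. No library of one group overlapped another group, with siEP300.H2O2 highest, then siNC.H2O2, siEP300 and siNC. The ratio of *HILPDA* to *PNPLA2* stayed between 0.190 and 0.277 in all libraries, with means of 0.258 ± 0.020, 0.240 ± 0.024, 0.206 ± 0.013 and 0.204 ± 0.018 in siEP300.H2O2, siEP300, siNC.H2O2 and siNC (SD, n = 3 each). These are ratios of transcripts, given as values with no test, and *G0S2* was singled out for its levels.

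**Figure D2:**
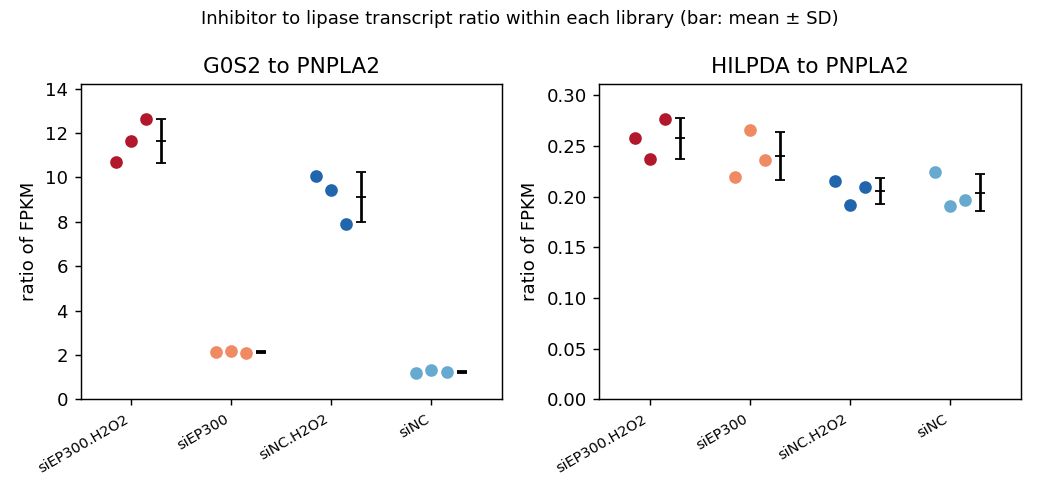
Ratio of the FPKM of *G0S2* (left) and *HILPDA* (right) to that of *PNPLA2* within each library, 1 point per library with the group mean ± SD, both axes linear from 0. The *G0S2* ratio averages 11.7 in siEP300.H2O2, 2.14 in siEP300, 9.13 in siNC.H2O2 and 1.24 in siNC.

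*LIPE*, which encodes hormone-sensitive lipase, was about 2-fold lower with EP300 siRNA, with and without H2O2. It was at 3.20, 4.74 and 5.07 CPM in siEP300.H2O2, 5.95, 5.10 and 5.50 in siEP300, 9.21, 9.11 and 8.23 in siNC.H2O2 and 9.50, 10.8 and 11.7 in siNC. No 2 neighbouring groups overlapped, in the order siEP300.H2O2, siEP300, siNC.H2O2 and siNC from the lowest. *LIPE* fell by 1.03 ± 0.15 on the log2 scale in siEP300.H2O2 relative to siNC.H2O2 (2.04-fold, edgeR adjusted p = 2.57e-05) and by 0.95 ± 0.14 in siEP300 relative to siNC (1.93-fold, edgeR adjusted p = 2.81e-05). The H2O2 differences were -0.35 with EP300 siRNA (edgeR adjusted p = 0.102) and -0.27 with control siRNA (edgeR adjusted p = 0.12), and neither passed. Without libraries 1, 7 and 10 the first was -0.17, as it was without library 10 alone, and the second was -0.38 and passed. With 58 to 220 counts per library it was the most thinly counted of the 8 genes, and *LIPE-AS1* overlaps it on the opposite strand (*LIPE* lies at chr19:42401507-42427426, minus strand).

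*MGLL*, the monoglyceride lipase that also breaks down an endocannabinoid, moved the other way: it rose with EP300 siRNA and with H2O2. Its level was 74.2, 74.7 and 80.0 CPM in siEP300.H2O2, 51.2, 45.7 and 50.1 in siEP300, 28.8, 27.2 and 32.0 in siNC.H2O2 and 20.2, 18.2 and 18.2 in siNC. The 4 groups were fully separated in that order. *MGLL* rose 2.60-fold in siEP300.H2O2 relative to siNC.H2O2 (log2 1.38 ± 0.07, edgeR adjusted p = 9.17e-10) and 2.60-fold in siEP300 relative to siNC (log2 1.38 ± 0.08, edgeR adjusted p = 1.61e-09), standing at place 133 and place 177 of 13171 genes from the highest. With H2O2 it rose 1.56-fold with EP300 siRNA (log2 0.64 ± 0.07, edgeR adjusted p = 9.35e-06) and 1.56-fold with control siRNA (log2 0.64 ± 0.08, edgeR adjusted p = 2.1e-05). The difference between these H2O2 effects was 0.001 ± 0.12 on the log2 scale, with a 95% interval of -0.26 to 0.26. *MGLL* (chr3:127689062-128052190, minus strand) overlaps *KBTBD12* and *SEC61A1* on the opposite strand, both present in the tables, with the same limit on telling reads apart.

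Of the coat genes, *PLIN3* passed the test as higher with H2O2 under both siRNAs and *PLIN2* under EP300 siRNA, each by less than 1.2-fold. The *PLIN2* effect of H2O2 with EP300 siRNA minus that with control siRNA was 0.096 on the log2 scale and did not pass. Neither gene passed the test for EP300 siRNA. *PLIN2* was at 75.4, 73.5 and 75.0 CPM in siEP300.H2O2, 64.1, 63.4 and 64.4 in siEP300, 82.4, 79.6 and 68.4 in siNC.H2O2 and 69.2, 71.8 and 69.9 in siNC. With H2O2 it rose by 0.22 ± 0.06 on the log2 scale in siEP300.H2O2 relative to siEP300 (edgeR adjusted p = 0.0164), where the groups did not overlap. The siNC.H2O2 and siNC libraries overlapped, at 0.13 ± 0.06 (edgeR adjusted p = 0.14); without library 9 of siNC.H2O2 this was 0.20 and passed. For EP300 siRNA the log2 differences were -0.04 with H2O2 (edgeR adjusted p = 0.601) and -0.14 without it (edgeR adjusted p = 0.0777). Without H2O2 the difference passed in limma on log2(FPKM + 1) and log2(FPKM + 0.1), at -0.19 and -0.20, with only the 2 groups fitted, at -0.13, without library 9 of siNC.H2O2, at -0.13, and without libraries 1, 7 and 10, at -0.14.

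*PLIN3* was at 149.6, 166 and 180.4 CPM in siEP300.H2O2, 144, 144 and 146 in siEP300, 173, 161 and 167 in siNC.H2O2 and 138, 139 and 145 in siNC. Libraries with H2O2 all lay above those without it. *PLIN3* rose by 0.19 ± 0.06 on the log2 scale in siEP300.H2O2 relative to siEP300 (edgeR adjusted p = 0.0279) and by 0.25 ± 0.06 in siNC.H2O2 relative to siNC (edgeR adjusted p = 0.00614). The *PLIN2* and *PLIN3* calls with EP300 siRNA were each lost when single libraries were left out: *PLIN2* without library 4 or 5 of siEP300 or 12 of siEP300.H2O2 (log2 differences of 0.22, 0.22 and 0.22), *PLIN3* without any of 4, 5, 6, 11 or 12 (0.12 to 0.20). The EP300 siRNA differences of *PLIN3* were -0.02 with H2O2 (edgeR adjusted p = 0.831) and 0.04 without it (edgeR adjusted p = 0.612).

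Per length, in FPKM, the order of the 8 genes differed between groups. In siEP300.H2O2, *G0S2* averaged 419 ± 44.9 FPKM, with *PLIN3* next at 83.7 ± 6.76. In siNC.H2O2 these were 426 ± 73.7 and 85.4 ± 2.12. In siEP300 the values were 85.5 ± 1.71 for *G0S2* and 75.0 ± 0.64 for *PLIN3*, while in siNC *PLIN3* led at 76.0 ± 1.71, ahead of *G0S2* at 64.8 ± 8.69. In siEP300.H2O2, siEP300, siNC.H2O2 and siNC (n = 3 each), *PNPLA2* averaged 35.9, 40.0, 46.5 and 52.2 FPKM. *PLIN2* averaged 46.2, 40.6, 48.0 and 46.5 FPKM in that order. *PNPLA2* thus averaged above *PLIN2* in siNC and below it in siEP300.H2O2, while their means lay close together in siEP300 and siNC.H2O2. *MGLL* averaged 19.1, 12.5, 7.44 and 5.10 FPKM and *HILPDA* 9.22, 9.60, 9.57 and 10.6 in the same order, so that *MGLL* averaged above *HILPDA* in both EP300 siRNA groups and below it in both control siRNA groups. *LIPE* was the lowest of the 8 in all 4 groups, at 1.47, 1.98, 3.23 and 4.04 FPKM in the same order.

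**Figure D3:**
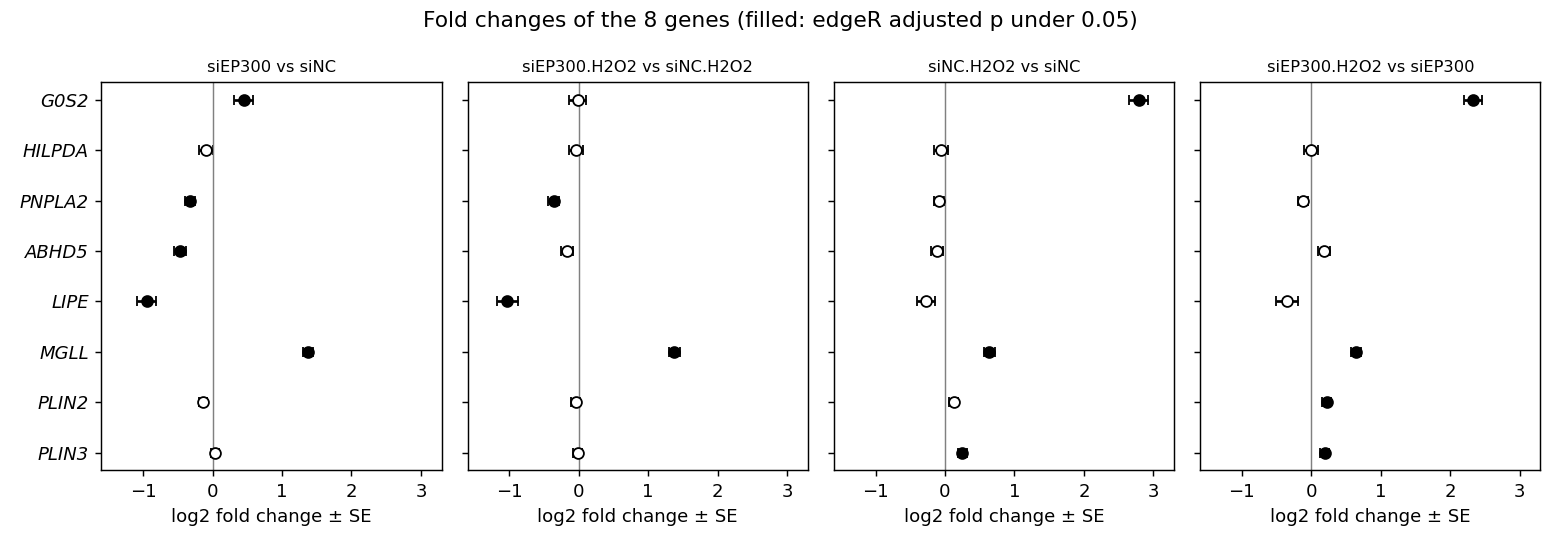
Log2 fold change of each gene (horizontal axis) with its standard error in the 4 comparisons. Filled points had an edgeR adjusted p under 0.05 across all 13171 genes. *G0S2* is shown as a description, and nothing is read from the fill of its point. *MGLL* stands right of 0 in all 4 panels, and *LIPE* lies near -1 in both EP300 siRNA panels.

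Counted over the 8 genes, 3 passed the test in siEP300.H2O2 against siNC.H2O2, where 59.0% of all genes did (28.4% higher, 30.6% lower): *MGLL* was higher and *LIPE* and *PNPLA2* lower. In all, 5 passed in siEP300 against siNC, against 61.5% of all genes (30.1% higher, 31.4% lower), with *G0S2* and *MGLL* higher and *ABHD5*, *LIPE* and *PNPLA2* lower. Both shares are near or under the background. For H2O2, 4 of 8 were higher in siEP300.H2O2 than in siEP300 (*G0S2*, *MGLL*, *PLIN2*, *PLIN3*) and 0 lower, where 15.9% of all genes were higher, 15.1% lower and 31.1% called in either direction. In siNC.H2O2 against siNC, 3 were higher (*G0S2*, *MGLL*, *PLIN3*) and 0 lower, where 17.8% of all genes were higher, 17.4% lower and 35.3% called. The split of all genes in that last comparison was 2349 higher and 2298 lower with edgeR, and 1621 higher and 3276 lower with limma on log2(FPKM + 1), which called the same number of the 8 genes, 3. *G0S2* is counted in these numbers though chosen for its levels, and nothing is read from its call.

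The median log2 difference of the 8 genes, *G0S2* included, was -0.04 in siEP300.H2O2 against siNC.H2O2 (-0.02 over all genes) and -0.11 in siEP300 against siNC (-0.004 over all genes). It was 0.19 in siEP300.H2O2 against siEP300 (-0.0004 over all genes) and 0.03 in siNC.H2O2 against siNC (-0.01 over all genes). For the difference between the 2 H2O2 effects, edgeR called 0 of the 8 genes, where 3.33% of all genes were called (1.12% higher, 2.21% lower). Among the 7 genes other than *G0S2*, unadjusted p was under 0.05 for 1 in edgeR, *ABHD5*. DESeq2 called 0 of these 7, with 1 at an unadjusted p under 0.05, and limma on log2(FPKM + 1) called 0, with 0 at an unadjusted p under 0.05. The comparisons that share a group of libraries are not independent of each other.

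**Figure D4:**
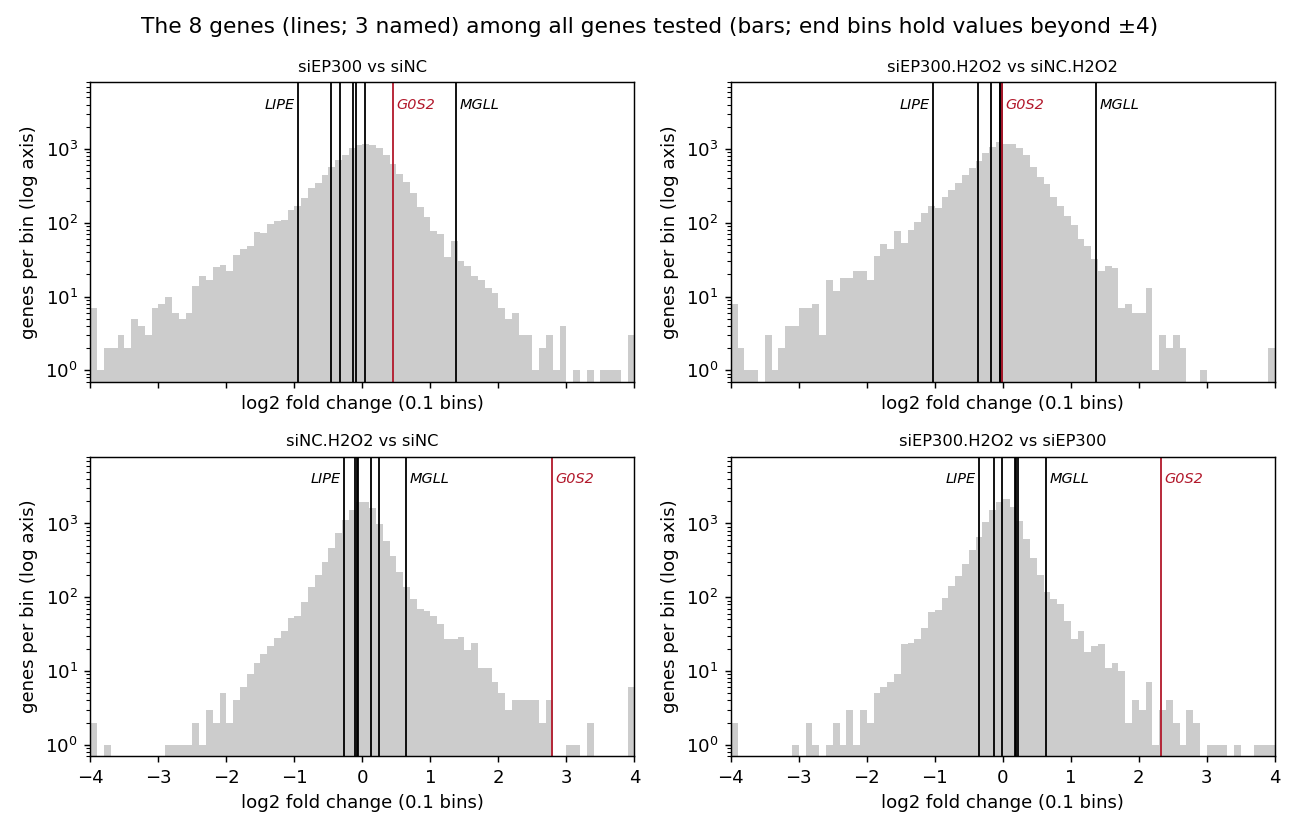
Number of genes per 0.1 bin of log2 fold change (log vertical axis) for all 13171 genes in each of the 4 comparisons, with the 8 genes as vertical lines and 3 of them named; values beyond ±4 are placed in the end bins. *G0S2* lies far into the right tail in both H2O2 panels, at 2.33 and 2.79, and within the bulk of genes in the EP300 siRNA panels.

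The libraries were also examined for 5 genes whose level over the 12 libraries was most like that of *G0S2* by Pearson correlation on log2(CPM + 1), among genes averaging at least 5 CPM. They were *PTX3* (r = 0.995), *ETV4* (0.995), *CD59* (0.993), *FHL2* (0.992) and *GDF15* (0.990), over 12 libraries that fall into 2 clusters by H2O2. The log2 H2O2 differences of these genes with EP300 siRNA and with control siRNA were 1.53 and 1.85 for *PTX3*, 1.52 and 1.66 for *ETV4*, 0.39 and 0.50 for *CD59*, 0.71 and 0.88 for *FHL2* and 4.27 and 4.34 for *GDF15*. They are named for the likeness of their levels alone.

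Around the 8 genes, 6 lists of other lipid genes held 97 symbols, of which 90 were in the tables and 75 were tested. In siEP300.H2O2 against siNC.H2O2, 20 were higher and 24 lower, and in siEP300 against siNC 19 were higher and 25 lower, so 58.7% were called in each, near the 59.0% and 61.5% of all genes. For H2O2, 9 were higher and 12 lower with EP300 siRNA, 21 of 75 against 31.1% of all genes, and 9 higher and 14 lower with control siRNA, 30.7% against 35.3%. These shares are near the background, and shares of the single lists below rest on 4 to 18 genes each and are given with no test. The median log2 difference of the 75 genes was -0.03 and -0.09 in the EP300 siRNA comparisons with and without H2O2, and -0.04 and -0.07 in the H2O2 comparisons with EP300 and control siRNA.

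Of 18 tested genes of triglyceride synthesis, 4 rose and 9 fell in siEP300.H2O2 against siNC.H2O2, and 6 rose and 9 fell in siEP300 against siNC. These are 72.2% and 83.3% of the list, where 59.0% and 61.5% of all genes were called. *DGAT2*, which catalyses the last step of triglyceride synthesis, fell by 1.54 ± 0.20 and 1.83 ± 0.21 on the log2 scale in these comparisons (edgeR adjusted p = 1.26e-05 and 2.95e-06), with group means of only 1.58 to 5.85 CPM. *ACSL1*, which activates long-chain fatty acids, fell by 0.72 ± 0.09 and 0.75 ± 0.10 (edgeR adjusted p = 9.61e-06 and 8.51e-06), and the acyltransferase *AGPAT3* fell by 0.40 and 0.54. With H2O2, 3 rose and 2 fell under EP300 siRNA, and 2 rose and 2 fell under control siRNA, or 27.8% and 22.2% against 31.1% and 35.3% of all genes. Under EP300 siRNA these were *ACSL5* (1.01 ± 0.27), *AGPAT3* (0.23) and *ACSL1* (0.37) upward and *ACSL3* (-0.31) among those downward. Under control siRNA, *ACSL4* (0.40) and *ACSL1* (0.33) were upward and *DGAT1* (-0.34) was among those downward. Under EP300 siRNA the *ACSL5* call was lost without library 4 of siEP300, at 0.89, and the *ACSL1* call without library 6, at 0.32. Under control siRNA the *ACSL1* call was lost without library 7 of siNC.H2O2, at 0.26, without libraries 1 and 7, at 0.23, without 1, 7 and 10, at 0.23, and in limma on log2(FPKM + 0.1), at 0.24.

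Of 13 other neutral lipid lipases and esterases, 3 rose and 5 fell in siEP300.H2O2 against siNC.H2O2, and 2 rose and 4 fell in siEP300 against siNC, which is 61.5% and 46.2% of the list against 59.0% and 61.5% of all genes. *DAGLB*, a diacylglycerol lipase, fell by 1.14 ± 0.06 and 1.07 ± 0.06 on the log2 scale (edgeR adjusted p = 4.37e-10 and 9.08e-10). *NCEH1*, a neutral cholesterol ester hydrolase, rose by 0.75 ± 0.08 and 1.22 ± 0.08 (edgeR adjusted p = 8.64e-07 and 7.25e-09), and the lysosomal acid lipase *LIPA* by 0.33 and 0.59. The endothelial lipase gene *LIPG* fell by 1.82 ± 0.21 in siEP300.H2O2 against siNC.H2O2 (edgeR adjusted p = 3.75e-06) and by 0.79 ± 0.23 in siEP300 against siNC (edgeR adjusted p = 0.00772). With H2O2, 2 rose and 3 fell under EP300 siRNA and 4 rose and 3 fell under control siRNA, or 38.5% and 53.8% against 31.1% and 35.3% of all genes. *ABHD12* was among those that rose in both, by 0.25 and 0.30, and *NCEH1*, by 0.23 and 0.70. The *NCEH1* call under EP300 siRNA was lost in limma on FPKM with either pseudocount, at 0.20 and 0.20, and without library 4, 5, 10 or 12, at 0.22, 0.22, 0.19 and 0.23. *LIPA* fell by 0.34 under EP300 siRNA, and *LIPG* rose by 0.91 ± 0.19 under control siRNA.

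Of 7 tested genes of fatty acid uptake and binding, 1 rose and 4 fell in siEP300.H2O2 against siNC.H2O2, and 2 rose and 2 fell in siEP300 against siNC. These are 71.4% and 57.1% of the list, where 59.0% and 61.5% of all genes were called. *FABP3*, the heart fatty acid binding protein, fell by 1.08 ± 0.17 and 1.73 ± 0.17 on the log2 scale (edgeR adjusted p = 7.03e-05 and 4.44e-07), with group means of 1.18 to 3.93 CPM. *SLC27A4*, a fatty acid transport protein, rose by 0.60 and 0.47. With H2O2 none rose under either siRNA, while 3 fell under EP300 siRNA and 4 under control siRNA, or 42.9% and 57.1% of the list against 31.1% and 35.3% of all genes. *SLC27A2* fell by 0.97 and 1.10. *DBI*, an acyl-CoA binding protein, fell by 0.47 under EP300 siRNA and by 0.32 under control siRNA. The second *DBI* call was lost with only the 2 groups fitted, at -0.32, and without library 2, 8 or 9, at -0.20, -0.35 and -0.23. *VLDLR*, a receptor for triglyceride-rich lipoproteins, was at 7.78, 6.46 and 6.89 CPM in siEP300.H2O2, 13.4, 12.6 and 14.6 in siEP300, 12.0, 12.3 and 11.8 in siNC.H2O2 and 11.2, 11.3 and 12.0 in siNC. It was low in siEP300.H2O2 alone, and fell there by 0.77 ± 0.09 relative to siNC.H2O2 (edgeR adjusted p = 5.87e-06) and by 0.94 ± 0.09 relative to siEP300 (edgeR adjusted p = 3.38e-06).

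Of 18 tested genes of fatty acid oxidation and of the PPAR family, 6 rose and 4 fell in siEP300.H2O2 against siNC.H2O2, and 4 rose and 7 fell in siEP300 against siNC, or 55.6% and 61.1% against 59.0% and 61.5% of all genes. *UCP2*, a mitochondrial inner membrane carrier, rose by 1.00 ± 0.08 and 0.97 ± 0.08 on the log2 scale (edgeR adjusted p = 7.24e-08 and 6.75e-08). *CPT1A*, which brings long-chain fatty acids toward the mitochondrial matrix, fell by 0.77 ± 0.12 and 0.87 ± 0.12 (edgeR adjusted p = 7.41e-05 and 1.71e-05). *PPARG*, a nuclear receptor that drives fat storage genes, fell by 1.21 ± 0.19 in siEP300.H2O2 against siNC.H2O2 (edgeR adjusted p = 7.11e-05) and by 0.69 ± 0.21 in siEP300 against siNC (edgeR adjusted p = 0.0118). The second *PPARG* call was lost in limma on FPKM with either pseudocount and without library 3 or 6, at -0.24, -0.44, -0.56 and -0.43. *ACADS*, a short-chain acyl-CoA dehydrogenase, fell by 0.52 in siEP300 against siNC. With H2O2 1 rose and 1 fell under EP300 siRNA, and 2 rose and 3 fell under control siRNA, or 11.1% and 27.8% against 31.1% and 35.3% of all genes. The nuclear receptor *PPARD* rose in both, by 0.26 and 0.48, and *UCP2* fell in both, by 0.22 and 0.26. Under control siRNA, *PPARG* rose by 0.85 ± 0.18 and *ACADM* fell by 0.25. The *UCP2* call under EP300 siRNA was lost in DESeq2, at -0.22, and without library 4, 5, 10 or 12, at -0.21, -0.20, -0.20 and -0.20. Its call under control siRNA was lost in DESeq2, at -0.26, and with only the 2 groups fitted, at -0.25. It was also lost without library 2, 3, 8 or 9, at -0.23, -0.24, -0.25 and -0.21.

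Of 15 tested genes of droplet assembly and droplet-resident proteins, 6 rose and 2 fell in siEP300.H2O2 against siNC.H2O2, and 5 rose and 3 fell in siEP300 against siNC, which is 53.3% in each against 59.0% and 61.5% of all genes. *AUP1*, a droplet-resident ubiquitin ligase factor, rose by 0.63 and 0.48 on the log2 scale, and *SPART* (spartin) fell by 0.25 and 0.24. *PCYT1A*, which sets phosphatidylcholine synthesis, rose by 0.29 in siEP300.H2O2 against siNC.H2O2 and by 0.19 in siEP300 against siNC. The second *PCYT1A* call was lost in limma on FPKM with either pseudocount, at 0.12 and 0.13. *METTL7A*, a droplet-associated protein, fell by 1.05 ± 0.23 in siEP300.H2O2 against siNC.H2O2 and by 1.22 ± 0.18 in siEP300 against siNC. With H2O2, 3 rose and 3 fell under EP300 siRNA and 1 rose and 2 fell under control siRNA, or 6 and 3 of 15 genes, against 31.1% and 35.3% of all genes. *METTL7A* fell by 1.15 and 1.32 (SE 0.18 for the second). *LDAF1*, the partner of seipin, rose by 0.33 and 0.29, *AUP1* rose by 0.26 under EP300 siRNA and *FITM2* fell by 0.32 under control siRNA. The *AUP1* call was lost without library 11 of siEP300.H2O2, at 0.21, and the *LDAF1* call under control siRNA in limma on FPKM with either pseudocount, at 0.17 and 0.18. Of the 6 droplet coat and CIDE genes, 4 were tested and edgeR called 0 in every comparison, with 0 at an unadjusted p under 0.05 and 0 by DESeq2 or limma. *PLIN5* and *CIDEA* stayed under the filter. The 4 tested genes were measured with little precision, with standard errors of 0.21 to 0.37 in siEP300.H2O2 against siNC.H2O2. There *PLIN4* was at -0.70 on the log2 scale, with a 95% interval of -1.48 to 0.08, so 0 calls do not show that levels were unchanged.

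**Figure D5:**
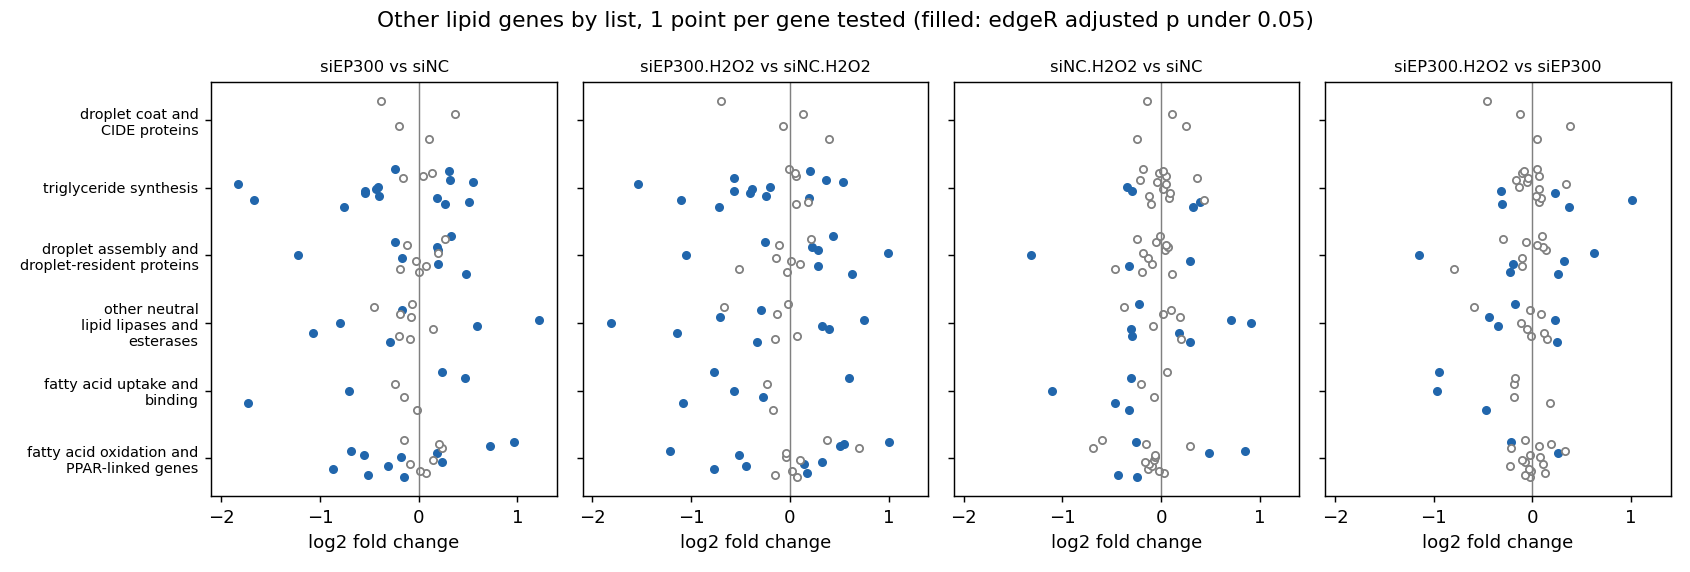
Log2 fold change (horizontal axis) of every tested gene of the 6 lists of other lipid genes, 1 point per gene and list by row, in the 4 comparisons; filled points had an edgeR adjusted p under 0.05. The points lie to both sides of 0 in each list, with *DGAT2* and *FABP3* leftmost in siEP300 against siNC, at -1.83 and -1.73.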

How the data were processed

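RNA of 12 AC16 libraries, 3 in each of 4 groups read from their titles, was analysed. The authors deposited estimated counts per gene symbol, not scaled between libraries, and FPKM values, which scale fragments to gene length and to the library, both over 17197 symbols. HISAT and Bowtie2 with the GRCh38.p13 build are named, per the submitters' processing notes. The counting program, its strand setting and the annotation were not given in the sources used here. Estimated counts were rounded, since 12.0% to 13.8% of them in a library were not whole. Totals were 16081437 to 19033679 per library.

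The quasi-likelihood test of edgeR 4.0.16 (R 4.3.3) was fitted to all 12 libraries with TMM scaling and 1 mean per group, on 13171 genes left by filterByExpr. Tests were two-sided, with Benjamini-Hochberg adjustment over all genes tested and calls at an adjusted p under 0.05. The difference between H2O2 effects is the interaction term. The common dispersion corresponds to a biological coefficient of variation of 6.72%. Replicate pairs differed by more than sampling noise (chi-square per degree of freedom from 1.78 up to 18.1, on genes of 20 or more counts), and each library counted as 1 sample. The script was tested on simulated data.

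Alternatives were DESeq2 1.42.0, its size factors within edgeR, no filter on low counts, and limma 3.58.1 on log2(FPKM + 1) and log2(FPKM + 0.1). Further ones were fits of only the groups compared, each library left out in turn, libraries 1 and 7 left out together and libraries 1, 7 and 10 left out together. Neither set of libraries is singled out by the labels, and the set of 1, 7 and 10 was chosen after seeing the data. The members and lists were chosen with earlier results of these data known, and TGACNNNGC and TGANTCA were added to the motifs afterwards. Named genes outside the 8 are EP300, MLF1, up to 3 called members of each list with the smallest adjusted p in each comparison, and the 5 genes most like *G0S2*. Gene positions come from GENCODE v29 (GRCh38).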

Additional observations from a re-analysis of the deposited data

Results flagged for a closer look

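For 2 lipid genes outside the 8, the effect of EP300 siRNA differed with and without H2O2 by the interaction term of the edgeR fit. *VLDLR* differed by -1.003 on the log2 scale (edgeR adjusted p = 0.000863), with means of 7.04 ± 0.67 CPM in siEP300.H2O2, 13.5 ± 0.995 in siEP300, 12.0 ± 0.26 in siNC.H2O2 and 11.5 ± 0.44 in siNC (SD, n = 3 each). Its call held in 19 of 19 alternatives, at -1.08 to -0.50. *NCEH1* differed by -0.47 (edgeR adjusted p = 0.0299), with means of 184 ± 11.02 CPM in siEP300.H2O2, 157 ± 5.55 in siEP300, 109 ± 11.8 in siNC.H2O2 and 67.1 ± 4.61 in siNC. That call was lost in 11 of 19 alternatives, which ran from -0.66 to -0.40.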

How the results depend on the processing

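No paired analysis was possible because no library number is shared between groups. Leaving out libraries 1, 7 and 10 together was chosen after seeing the data, and no label singles out libraries 1 and 7 either. Since these libraries lay far from their partners, leaving out either set lowers the spread within groups by construction. Without 1, 7 and 10, *G0S2* in siEP300.H2O2 against siNC.H2O2 was 0.24 (-0.01 with all libraries), given as a description. EP300 in siNC.H2O2 against siNC, not called at -0.12 with all libraries, was 0.19 without these 3. No reported value that was called with all libraries changed direction under any alternative run. Of the fold changes of the 8 genes, 774 alternative values kept the side of the threshold, 9 newly passed it and 8 lost it. For 1 the direction changed with a call in 1 of the 2 fits. The 774 include changes of sign with no call in either fit. For example, *HILPDA* in siEP300.H2O2 against siNC.H2O2 was -0.04 with all libraries and 0.05 without libraries 1 and 7. The 3 members called in siNC.H2O2 against siNC were 5 without libraries 1, 7 and 10. The 4 members called in siEP300.H2O2 against siEP300 ranged from 2 to 4 with 1 library left out, and were 2 without library 4 or 5 of siEP300 or 12 of siEP300.H2O2. The 21 other lipid genes called there ranged from 13 (without library 4 of siEP300) to 23 with 1 library left out, and were 26 with only the 2 groups fitted, 26 without libraries 1 and 7 and 24 without 1, 7 and 10. For the interaction, the 439 genes called ranged from 196 to 709 with 1 library left out (681 without library 1, 709 without library 7, and 196 to 252 without any of 2, 3, 4, 5, 6, 8, 11 or 12) and were 1995 without libraries 1 and 7 and 3409 without 1, 7 and 10. The split of 148 higher and 291 lower was 325 higher and 229 lower with limma on log2(FPKM + 1). The 2 other lipid genes called for the interaction ranged from 1 (without any of 2, 3, 4, 5, 6, 8, 9, 11 or 12) to 5 (without 7) with 1 library left out, were 4 with limma on log2(FPKM + 1) and were 11 without libraries 1 and 7 and 20 without 1, 7 and 10. The cause of the other changes was not tested. *LIPE*, with the fewest counts of the 8 genes, is where depth limits precision most.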
